A study of Homo sapiens with 6 samples.

Results

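The comparison of p53 knockdown with control siRNA in TOV21G cells rests on 4 of the 6 RNA-seq libraries of the study, the 2 labelled sip53 and the 2 labelled NC, taken by the names of their columns in the deposited gene table. All 16910 genes of that table were considered, and 13235 of them had enough reads to be tested. TOV21G is an established human line from an ovarian clear cell carcinoma, and the labels give it as WT in all 6 libraries. NC is read as a control siRNA and sip53 as siRNA against p53, from their names alone. For the siRNA sequences, their number, the dose and the time after transfection, nothing is given in the sources used here. The other 2 libraries, labelled siGYS1 for knockdown of the glycogen synthase gene GYS1, added to the estimate of spread and served in a direct comparison with sip53. Nothing in the labels says that the libraries came from separate cultures, so the p-values reflect no more than the spread among these libraries of 1 cell line, which may be technical.

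p53 is a transcription factor that is held at a low level by the ubiquitin ligase MDM2 and accumulates under DNA damage and other stresses. It binds response elements in genes of growth arrest, cell death, DNA repair and metabolism and raises their transcription, MDM2 among them, which closes a feedback loop. Through the inhibitor p21 it also keeps genes of the cell cycle repressed, by way of E2F sites and of the CHR element that the DREAM complex binds.

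The read counts summed to between 17425000 and 18097337 in the 6 libraries. Levels below are the authors' FPKM, fragments scaled to transcript length and library depth, in replicates 1 and 2 of a group in that order. A gene is said to have changed where edgeR's quasi-likelihood test on the read counts gave a Benjamini-Hochberg adjusted p below 0.05 over all genes tested, and fold changes are log2 estimates of that fit with a standard error (SE). By this rule 6605 genes (49.9% of those tested) differed between sip53 and NC. Of these, 3103 (23.4%) were higher with sip53 and 3502 (26.5%) were lower. A change of at least 2-fold was seen in 1651 genes (12.5%), 721 of them higher (5.45%) and 930 lower (7.03%). The median log2 fold change was -0.03 over all genes tested, and the median size of the changes called was 0.62. The FPKM of both groups did not overlap for 75.6% of the genes tested, and for 6450 of the 6605 genes called. Where a lack of overlap is given below for called genes, it therefore adds little to the call. Higher genes were 47.0% of the calls in this fit and 35.6% with limma on log2(FPKM + 1). Without sip53 replicate 1 the count of changed genes was 4271. Libraries differed in how read counts ran with gene length: across 11172 genes, which are not independent replicates, the Spearman correlation of a library's deviation from its gene means with gene length ran from -0.29 in NC replicate 2 to 0.41 in siGYS1 replicate 1, and for the mean difference of sip53 and NC it was 0.04. A count within a gene list is to be read against these shares, since about every other gene was called.

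Of the relatives of p53, TP73, which encodes the transcription factor p73, was at 1.75 and 1.47 FPKM with NC and 0.42 and 0.37 with sip53, a fall of 3.52-fold (log2 -1.82, adjusted p = 5.77e-05). TP63 was at or near 0 in every library and was not tested.

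Among 17 regulators of p53, 5 fell (3 without NC replicate 2 or either sip53 library), 2 rose and 10 did not pass. MDM2, the ubiquitin ligase that p53 itself induces, was at 49.6 and 43.4 FPKM with NC and 14.1 and 12.7 with sip53. The sip53 libraries were both below the NC libraries by about 30 FPKM or more (log2 -1.58, SE 0.10, adjusted p = 2.89e-06). CDKN2A, whose alternative product ARF inhibits MDM2, moved the other way, from 4.79 and 5.80 to 20.1 and 18.9 FPKM (log2 2.01, SE 0.15, adjusted p = 7.36e-06). The deposited table holds 1 value for the locus and does not separate ARF from p16. RCHY1, another ubiquitin ligase of p53, rose by 0.48 (SE 0.09) from 26.9 and 28.1 to 38.9 and 35.1 FPKM. The checkpoint kinase genes CHEK1 (log2 -0.45) and CHEK2 (-0.42) and the acetyltransferase gene KAT5 (-0.46) fell, each by less than 1.5-fold. MDM4, the relative of MDM2, was called lower (log2 -0.30, adjusted p = 0.0276), but its FPKM overlapped between the groups, at 5.02 and 4.56 with NC and 4.25 and 5.09 with sip53. That call was lost without any 1 of the 4 libraries, such as without NC replicate 2 (-0.28, adjusted p = 0.115). CHEK1 lost its call without sip53 replicate 1 (-0.40, adjusted p = 0.0533), and KAT5 without NC replicate 2 (-0.42, adjusted p = 0.053). KAT5 also missed the threshold when the second sip53 library was dropped (-0.41, adjusted p = 0.0874). The kinase genes ATM (log2 -0.11, adjusted p = 0.691), ATR (0.11, 0.521) and HIPK2 (-0.01, 0.963), the coactivator genes EP300 (0.01, 0.964) and CREBBP (-0.17, 0.331), and TP53BP1 (-0.05, 0.705) did not pass. Neither did the ubiquitin ligase gene COP1 (0.00, 0.987), the deubiquitinase gene USP7 (-0.22, 0.0649), the phosphatase gene PPM1D (-0.22, 0.113) or the deacetylase gene SIRT1 (0.27, 0.0614).

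The target genes of p53 did not move as a block. Of 52 tested targets in all roles, 22 fell (42.3%, against 26.5% of all genes tested) and 10 rose (19.2%, against 23.4%). The other 20 did not pass, and the median log2 fold change was -0.2 against -0.03 over all genes tested. The counts differed by role. Of 10 targets of metabolism and redox 6 fell and 0 rose (median -0.46), and of 6 DNA repair targets 4 fell and 0 rose (median -0.74). Of 10 growth arrest targets 5 rose and 2 fell (median 0.29), and of 14 cell death targets 3 rose and 3 fell (median -0.11). Those cell death counts, 21.4% each way, are near the shares over all genes tested. Among 12 targets of other roles 7 fell and 2 rose (median -0.3). Without 1 library these counts shrank: the 5 growth arrest rises were 3 without sip53 replicate 1 and 2 without sip53 replicate 2, the 2 growth arrest falls were 1 without NC replicate 2 or either sip53 library, and the 7 falls of other roles were 3 without either sip53 library and 4 without NC replicate 2.

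**Figure D1:**
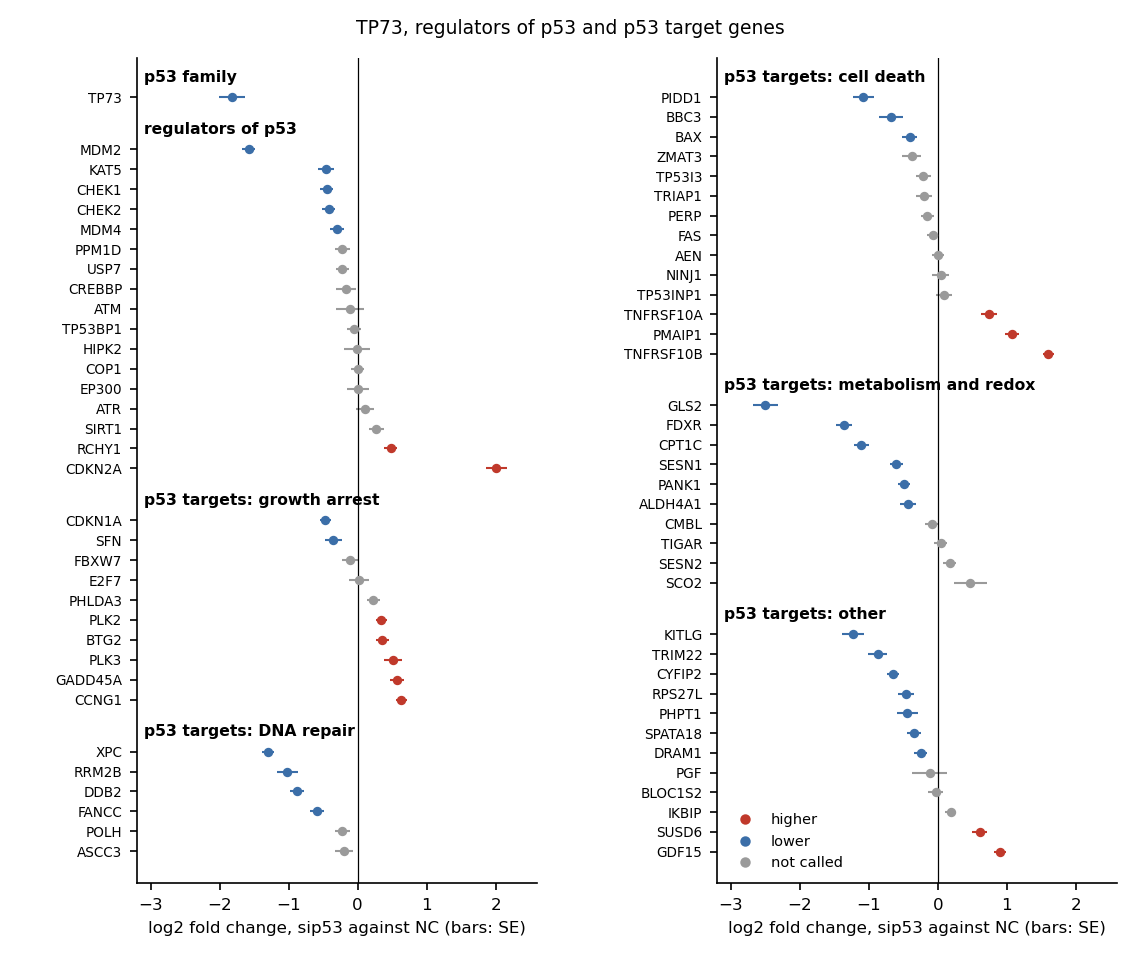
Log2 fold change of sip53 against NC for TP73, the regulators of p53 and its targets by role, with the SE of the fit as bars and colour for the call. The DNA repair targets all lie below 0, and the growth arrest targets lie between -0.47 and 0.63.

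Among the p53 targets tested, GLS2 of the metabolic list fell most by fold. GLS2, the liver-type glutaminase, fell from 4.76 and 5.54 FPKM with NC to 0.83 and 0.86 with sip53 (log2 -2.5, SE 0.18, adjusted p = 5.68e-06). FDXR, ferredoxin reductase of the mitochondrion, fell from 37.98 and 42.7 to 13.9 and 15.3 FPKM (log2 -1.36, SE 0.12). CPT1C, a carnitine palmitoyltransferase of the endoplasmic reticulum, fell by 1.11 and the sestrin gene SESN1 by 0.60. No library of either group overlapped with the other for these 4 genes, as for 75.6% of all genes tested. A stretch of the FDXR promoter (RefSeq, build GRCh38.p14) is shown because FDXR was the metabolic target whose promoter held a p53 half-site, the unit that occurs as a pair in a p53 element. The half-site is in capitals, and its first base in gene direction is 11 bases before the start.
FDXR (chr17:74872986-74873015, minus strand): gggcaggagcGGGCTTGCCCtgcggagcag
Over all promoters the half-site was present in 5.4% of genes higher by at least 2-fold, in 5.2% of genes lower by at least 2-fold and in 5.3% of all tested genes with a promoter. Of the p53 targets in all roles, 4 of 42 with a promoter held it (9.5%).

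Of the repair targets, 4 of 6 fell. XPC, the damage sensor of nucleotide excision repair, went from 22.3 and 21.1 to 8.50 and 8.07 FPKM (log2 -1.30, SE 0.09, adjusted p = 3.72e-06). Its partner DDB2 went from 28.9 and 26.99 to 14.9 and 15.1 FPKM (log2 -0.88), and RRM2B, the p53-inducible subunit of ribonucleotide reductase, from 17.9 and 15 to 8.26 and 6.93 FPKM (log2 -1.02). FANCC, of the Fanconi anemia core complex, fell by 0.59. In all 4 genes both sip53 libraries were below both NC libraries.

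Growth arrest and death targets were mixed. CDKN1A, which encodes the inhibitor p21, was at 264 and 262 FPKM with NC and 182 and 171 with sip53, a 1.38-fold fall (log2 -0.47, SE 0.08, adjusted p = 0.00105). CCNG1, cyclin G1, rose from 79.4 and 78.8 to 119 and 112 FPKM (log2 0.63), and the stress gene GADD45A rose by 0.57. Thus p21 was lower and 5 other arrest targets were higher in the same libraries. Among death targets, the death receptor gene TNFRSF10B rose from 95.5 and 85.8 to 261 and 243 FPKM (log2 1.60, SE 0.08, adjusted p = 8.78e-07). Its neighbour in function TNFRSF10A rose by 0.74, and the BH3-only gene PMAIP1 rose by 1.08. PIDD1, which encodes a scaffold of caspase-2, fell from 6.61 and 8.73 to 3.51 and 3.52 FPKM (log2 -1.08). The other 2 falls, named after their values were seen, were BBC3 (-0.68, adjusted p = 0.00847), which encodes PUMA, and BAX (-0.41, adjusted p = 0.0131). Of the other roles, the stress cytokine GDF15 rose from 551 and 570.2 to 979 and 967 FPKM (log2 0.90), while KITLG, the ligand of KIT, fell by 1.23 and the ubiquitin ligase gene TRIM22 by 0.87.

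Several of the largest rises over all genes were in genes of secreted and surface proteins. MMP1, interstitial collagenase, was at 0.10 and 0.07 FPKM with NC and 10.9 and 8.41 with sip53, and the cytokine gene CSF2, which encodes GM-CSF, was at 0.33 and 0.22 and 32.3 and 30.6. Both were near 0 in the NC libraries, with 5 reads each over both libraries, against 585 reads for MMP1 and 572 for CSF2 with sip53. The ratio of summed reads was 117 for MMP1 (exact 95% interval 49.9 to 362, counting error alone) and 114 for CSF2 (48.7 to 354). The neuropeptide precursor gene VGF rose from a level well above 0, 6.38 and 5.65 FPKM, to 111 and 119 (log2 4.35, SE 0.11, adjusted p = 5.02e-08). TM4SF19, a tetraspan-type membrane protein, rose from 2.29 and 3.01 to 62.9 and 55.9 FPKM (log2 4.57, SE 0.16). None of these 4 genes overlapped between the groups, which the rule for naming them required.

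Other genes of that size came from near 0. G0S2, an inhibitor of the triglyceride lipase PNPLA2, rose from 0.85 and 0.85 to 24.97 and 23.02 FPKM, the cardiac actin gene ACTC1 from 0.61 and 0.20 to 14.7 and 12.8, and the activation antigen gene CD69 from 0.55 and 0.52 to 10.6 and 8.84. TNFRSF9 (log2 4.35), the T cell costimulator 4-1BB, and the ligand gene TNFSF15 (4.64) belong to the TNF families. ANKRD1 (4.29) encodes a muscle ankyrin protein, HSPB8 (4.08) a small heat shock protein and WFDC1 (4.05) a secreted protein of the whey acidic type. For TMEM265, CRYAA (the lens crystallin gene) and ENSG00000258864 at least 1 NC library had 0 reads. Their ratios of summed reads were 43 (20.6 to 108), 50 (8.57 to 2010) and 38 (6.42 to 1540), so the size of their rise is known only within wide limits.

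The largest falls included genes that were well expressed in the control. DKK1, a secreted inhibitor of Wnt signalling, was at 103 and 106 FPKM with NC and 7.21 and 7.58 with sip53 (log2 -3.72, SE 0.10, adjusted p = 5.02e-08). COMP, a cartilage matrix protein, fell from 424 and 488 to 39.3 and 40.3 FPKM (log2 -3.42, SE 0.10), and THBS1, thrombospondin 1 of the same family, from 69.4 and 65.96 to 6.25 and 6.45 (log2 -3.31). The sip53 libraries of each gene lay within 1 FPKM of each other and at least 10-fold below NC. MPZL1, a receptor-like glycoprotein, fell from 96.7 and 85.7 to 7.17 and 6.59 FPKM, and the antimicrobial peptide gene DEFB1 from 63.04 and 87.3 to 4.62 and 2.11. SLC17A8, a vesicular glutamate transporter, had the largest estimated fall, from 7.30 and 6.37 to 0.03 and 0.09 FPKM (log2 -6.67, SE 0.26). SAMD11 (-5.44), the splicing regulator gene MBNL3 (-3.58), the meiotic gene MNS1 (-3.32), the calcitonin receptor-like receptor gene CALCRL (-3.26), FAM149A (-3.16), the glycosyltransferase gene LARGE2 (-3.11) and FBXL16 (-2.92) fell too.

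**Figure D2:**
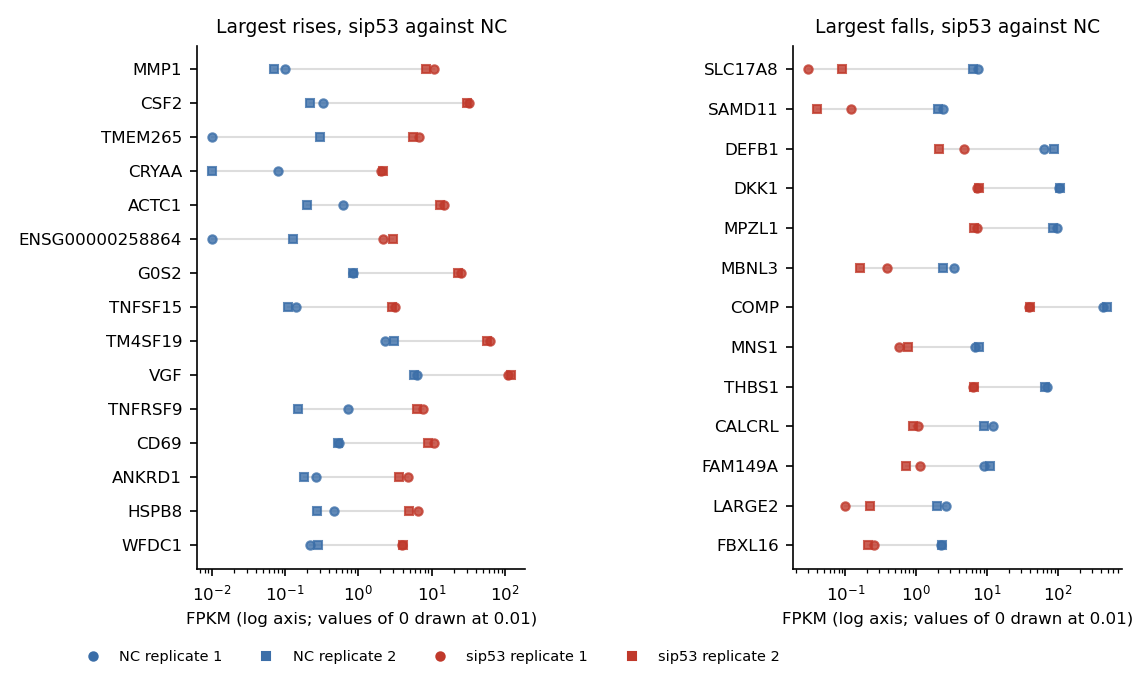
FPKM on a log axis of the largest rises and falls by fitted fold change that are named here, 1 point per library, with values of 0 drawn at the left edge. In each gene the sip53 points lie on 1 side of the NC points, which the rule for naming these genes required.

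Measured in TPM, which gives each transcript's share of a library, a few abundant genes made large changes. Transcripts encoded in mitochondrial DNA are left out of this ranking and are given with the respiratory chain. FTH1, the ferritin heavy chain, was at 15690 and 15979 TPM with NC and 32651 and 33572 with sip53 (log2 1.11, SE 0.10, adjusted p = 2.32e-05). Its gain of 17277 TPM was 17.9% of the summed rises of all called genes other than these. The aldose reductase gene AKR1B1 went from 2253 and 2152 to 5767 and 5207 TPM, the neutrophil chemokine CXCL8 from 381 and 338 to 3273 and 3036 and the metallothionein gene MT2A from 4404 and 5280 to 7358 and 7809. PLAU, the urokinase gene (log2 1.42), SOD2, the mitochondrial superoxide dismutase (1.85), PSAP, the precursor of the saposins (1.09), and the glycolytic genes LDHA (0.68), PKM (0.72) and GAPDH (0.35) complete the 10. The GAPDH call was lost without NC replicate 1 (0.28, adjusted p = 0.0695). It was also lost when sip53 replicate 1 was left out (0.34, adjusted p = 0.0816), and likewise for the second sip53 library (0.37, adjusted p = 0.0595). FTH1, MT2A and GAPDH have near-identical copies or pseudogenes, and the labels do not say how reads that fit several copies were counted.

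Of the abundant nuclear-encoded genes that fell, SPP1, which encodes osteopontin, stood first, at 4475 and 4387 TPM with NC and 939 and 792 with sip53 (log2 -2.30, SE 0.10). The proteoglycan gene SRGN went from 1665 and 1656 to 600.5 and 592 TPM. The chemokine genes CXCL1 (2691 and 2527 to 1643 and 1646 TPM) and CXCL5 (1095 and 917 to 469 and 499.6) fell while CXCL8 rose. RPL6, a protein of the large ribosomal subunit, went from 1600 and 1802 to 809 and 821 TPM, and the chromatin genes HMGB1 (log2 -0.71) and PTMA (-0.58) and the surface antigen gene CD24 (-0.38) fell less. RPL3 (-0.37) lost its call without NC replicate 2 (-0.24, adjusted p = 0.146). The same held when sip53 replicate 1 (-0.36, adjusted p = 0.119) and then sip53 replicate 2 (-0.38, adjusted p = 0.0984) was omitted.

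**Figure D3:**
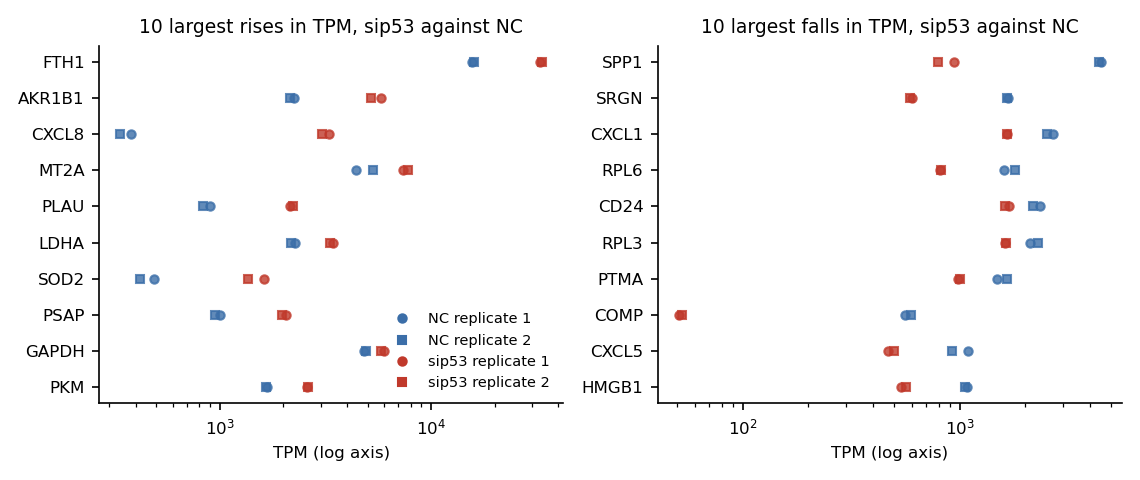
TPM on a log axis of the 10 largest rises and 10 largest falls in mean TPM among called genes, mitochondrially encoded transcripts left out, 1 point per library. FTH1 lies highest, at 32651 and 33572 TPM in the sip53 libraries and 15690 and 15979 in the NC libraries.

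Genes of the cell cycle fell together in the sip53 libraries. Of 171 tested genes in 10 lists of proliferation, 118 fell (69.0%, against 26.5% of all genes) and 17 rose (9.9%, against 23.4%), with a median log2 fold change of -0.55. All 21 genes of the spindle, cytokinesis and condensin fell (median -0.66), and so did 16 of 19 centromere and kinetochore genes (median -0.73) and 14 of 18 mitotic cyclins and kinases (median -0.54), of which 3 rose. For replication, 15 of 17 genes of origin licensing and the CMG helicase fell (median -0.81), 14 of 20 replicative polymerases and clamp genes (median -0.59, 1 rose, or 0 without NC replicate 1 or sip53 replicate 2) and 9 of 16 genes of nucleotide synthesis (median -0.35), where 0 rose, or 2 without siGYS1 replicate 2. Of 20 genes of homologous recombination and the Fanconi anemia pathway 16 fell, or 9 without sip53 replicate 1. In bulk libraries, fewer cells in a phase of the cycle and less RNA per cell cannot be told apart.

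The CHR element, TTTGAA, is shown first because it was frequent near the starts of genes in the 3 mitotic lists. It was found on either strand in 29 of the 48 mitotic genes with a promoter in the RefSeq table (60.4%), against 9.4% of all tested genes and 15.4% of all promoters in that table. TTTGAA stood in 13.3% of all genes lower by at least 2-fold and in 10% of those higher by at least 2-fold. The share in the mitotic lists thus describes the genes listed, not the falls at large. The promoters run from 250 bases before to 50 bases after the first listed start. The 4 examples below have the element in capitals, and the sequences are RefSeq windows on build GRCh38.p14. In the HMMR window a further copy, left in small letters, stands directly before the copy in capitals.
HMMR (chr5:163460598-163460627, plus strand): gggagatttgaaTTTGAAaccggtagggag
MKI67 (chr10:128126435-128126464, minus strand): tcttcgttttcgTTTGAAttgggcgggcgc
CCNB2 (chr15:59105105-59105134, plus strand): agcgacgcggtaTTTGAAtcctggaacaag
SPC25 (chr2:168890416-168890445, minus strand): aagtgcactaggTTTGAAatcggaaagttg
HMMR, a hyaluronan receptor that also binds the spindle, was at 21.6 and 21.6 FPKM with NC and 4.74 and 5.25 with sip53 (log2 -2.01, SE 0.11, adjusted p = 9.77e-07). The proliferation marker MKI67 went from 34.1 and 31.5 to 9.42 and 11.6 FPKM (log2 -1.54, SE 0.14), SPC25 of the NDC80 complex from 49.4 and 60.8 to 13.7 and 15.6 (log2 -1.79) and cyclin B2, CCNB2, from 45.5 and 51.1 to 24.5 and 28.1 (log2 -0.73). In each of the 4 genes both sip53 libraries were below both NC libraries. A CCAAT box stood in 33 of the 48 mitotic promoters (68.8%, against 36.7% of all tested genes). A match is a description of the letters, not of binding.

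**Figure D4:**
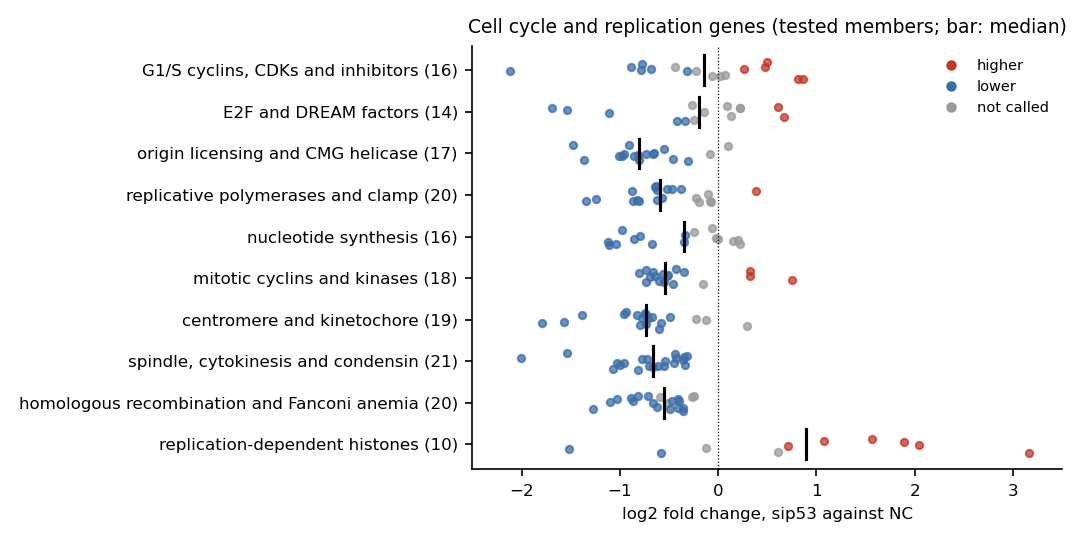
Log2 fold change of sip53 against NC for every tested member of 10 lists, with the list's number of tested members in brackets, its median as a bar and the call as colour. The spindle list lies wholly below 0, and the histone list has its median at 0.89.

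Other mitotic genes moved likewise. CENPF, a kinetochore protein of late cycle, went from 17.2 and 11.6 to 4.62 and 4.46 FPKM (log2 -1.57), CENPU fell by 1.39 and CENPM by 0.96. The topoisomerase gene TOP2A went from 57.6 and 52.7 to 23.4 and 25.7 FPKM (log2 -1.07), and the condensin gene SMC4 fell by 1.03. Cyclin A2, CCNA2, went from 42.9 and 41.8 to 20.3 and 25.01 FPKM (log2 -0.80) and the phosphatase gene CDC25C fell by 0.73. Against these, CDC25A, the phosphatase of the G1/S step, rose from 6.44 and 6.39 to 8.42 and 11.9 FPKM (log2 0.75, adjusted p = 0.000985). Of the 3 rises in its list 1 was left without NC replicate 2 or sip53 replicate 2.

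Replication genes held E2F words more often than other genes. TTTGGCG or TTTCCCG was found in 21 of 45 replication promoters (46.7%, against 9.4% of all tested genes and 6.1% of the table), and TTTGAA in 2 of them (4.4%). The E2F words stood in 11% of all genes lower by at least 2-fold and in 4.8% of those higher by at least 2-fold. The share in the replication lists thus describes the genes listed, not the falls at large. The 4 windows below have the E2F word in capitals.
MCM6 (chr2:135876516-135876544, minus strand): cattggtcaggTTTGGCGcgaaatctcca
GINS2 (chr16:85688967-85688995, plus strand): gcggccgccgtTTTCCCGccacggcgaga
PCNA (chr20:5126663-5126691, plus strand): aacgcacgcctTTTCCCGcccctgacgct
TYMS (chr18:657604-657632, minus strand): tccgcgcgcctTTTCCCGcggccgtcccg
MCM6, a subunit of the replicative helicase, was at 35.7 and 36.3 FPKM with NC and 11.4 and 12.8 with sip53 (log2 -1.48, SE 0.10, adjusted p = 2.89e-06). GINS2, of the same CMG complex, went from 11.5 and 13.9 to 4.43 and 4.76 FPKM (log2 -1.36), and the sliding clamp PCNA from 248 and 283 to 93.4 and 101 (log2 -1.34). TYMS, thymidylate synthase, went from 183 and 205 to 76.9 and 90.6 FPKM (log2 -1.11). All 4 fell to less than 50% of NC with no overlap. CDC6 (-1.01) and GMNN (-0.98), both named from the list of origin licensing and the CMG helicase, fell too. So did the ligase gene LIG1 (-1.24), the clamp loader gene RFC4 (-0.88), the primase gene PRIM1 (-0.87), the reductase gene RRM2 (-1.12) and DTYMK (-1.04). For repair of breaks, the nuclease gene EXO1 (-1.27), BRCA1 (-1.10), the helicase gene BLM (-1.03) and FANCI (-0.89) fell.

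The regulators upstream were split. Of 16 cyclins, CDKs and inhibitors of G1/S, 6 fell and 5 rose, and of 14 E2F and DREAM factors 5 fell and 2 rose. CDKN2C, the CDK4 and CDK6 inhibitor p18, went from 48.05 and 57.2 to 9.39 and 11.9 FPKM (log2 -2.12, SE 0.14), and the pocket protein gene RBL1 fell by 0.89. The cyclin genes CCND2 (13.2 and 14.9 to 22.9 and 24.7 FPKM, log2 0.86) and CCNE1 (18.5 and 17.9 to 28.4 and 29.2, log2 0.81) rose. Without any 1 of the 4 NC and sip53 libraries the 5 rises of that list were 2. E2F8 (-1.69), E2F2 (-1.54) and the DREAM subunit gene LIN52 (-1.11) fell, and E2F5 rose by 0.67, 1 of 2 rises that were 4 without siGYS1 replicate 2. Histone genes that are tied to replication went against the replication genes: 6 of 10 rose and 2 fell, or 1 without any 1 NC or sip53 library (median 0.89). H2BC4 went from 4.36 and 6.46 to 22.8 and 17.2 FPKM (log2 2.04) and H2BC21 from 0.90 and 1.03 to 3.89 and 2.82 (log2 1.89). Most such transcripts lack a poly(A) tail and have near-identical copies, the labels describe poly(A) selection, and H2AC18 was at 0 and 11.5 FPKM in the NC libraries.

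Nearly every gene in the list of the response to low oxygen rose. Of 23 classic hypoxia-induced genes 22 rose and 0 fell (median log2 fold change 1.12). EGLN3, named after its value was seen, was the one that did not pass (0.86). CA9, a carbonic anhydrase of the cell surface, was at 0.27 and 0.30 FPKM with NC and 4.12 and 2.91 with sip53 (log2 3.69, SE 0.34, adjusted p = 2.32e-05). NDRG1 went from 14.96 and 15.1 to 124 and 104 FPKM (log2 3.05, SE 0.11, adjusted p = 1.28e-07). ANGPTL4, an inhibitor of lipoprotein lipase, went from 28.4 and 30.02 to 200.2 and 180.0 FPKM (log2 2.81), and the hormone gene STC2 from 8.91 and 8.30 to 47.5 and 45.9 (log2 2.51). The sip53 libraries of these 4 genes were at least 5-fold above the NC libraries, with no overlap. The core of the hypoxia response element, ACGTG, stood on either strand in 10 of 20 promoters of the list (50%), against 26.5% of all tested genes and 21.6% of the table. Among all genes higher by at least 2-fold it stood in 24.9%, and among those lower by at least 2-fold in 19.7%. The share in the list thus describes the genes listed, not the rises at large. ACGTG is in capitals in the 2 windows below, of CA9 and of a glycolytic gene.
CA9 (chr9:35673898-35673926, minus strand): tgtacgggctgtACGTGcattggaaacga
LDHA (chr11:18394478-18394506, minus strand): gggggccggcggACGTGcgggaacccacg

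Most genes of glycolysis rose: of 24 genes of glucose uptake and glycolysis 18 rose and 0 fell (median 0.74). The glucose transporter gene SLC2A1 went from 58.6 and 57.2 to 296 and 271 FPKM (log2 2.42, SE 0.09, adjusted p = 1.28e-07) and SLC2A3 from 3.02 and 2.56 to 19.9 and 20.3 (log2 2.94). The hexokinase gene HK2 went from 7.98 and 6.93 to 27.1 and 24.4 FPKM (log2 1.89) and the enolase gene ENO2 from 41.7 and 39.1 to 147 and 129 (log2 1.86). Lactate dehydrogenase A, LDHA, went from 1720 and 1778 to 2659 and 2567 FPKM. All 5 were higher in both sip53 libraries. Among the members that did not pass, PFKL (0.07), PFKM (0.09) and ENO1 (0.23) were named after their values were seen.

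The respiratory chain showed few calls. Of 35 nuclear-encoded genes of the respiratory chain 0 rose and 1 fell, and the median was 0.02. Without NC replicate 1 there were 2 falls, and without NC replicate 2 there was 1 rise. Without either siGYS1 library there were 3 rises and 2 falls. Of 25 citrate cycle genes 5 rose and 2 fell. The pyruvate carboxylase gene PC went from 5.01 and 4.49 to 10.9 and 10.6 FPKM (log2 1.26), and SDHA, of succinate dehydrogenase, from 146 and 155 to 86.2 and 94.6 (log2 -0.63). The 5 rises were 10 without siGYS1 replicate 2 and 9 without siGYS1 replicate 1, and 3 without sip53 replicate 2, while the 2 citrate falls were 1 without any 1 NC or sip53 library. Of 13 transcripts encoded in mitochondrial DNA 4 rose and 3 fell, with MT-CO3 at -0.62 and MT-ND2 at 0.41, and the 4 rises were 2 without NC replicate 1 and 1 without sip53 replicate 2. Their summed level was 192158.7 and 184010.0 TPM with NC and 158906.4 and 168012.2 with sip53, lower in both sip53 libraries. MT-CO3 alone fell by 8685 TPM in the mean, more than SPP1. The share of all reads that the 13 transcripts took was 5.54% and 6.0% in the NC libraries and 4.81% and 5.0% in the sip53 libraries.

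Glycogen metabolism leaned upward. Of 21 genes 11 rose and 1 fell (median 0.26), and the 11 were 7 without NC replicate 2 or sip53 replicate 1. PPP1R3B, a subunit that targets protein phosphatase 1 to glycogen, went from 11.5 and 10.2 to 30.99 and 26.8 FPKM (log2 1.5, SE 0.11), and its relative PPP1R3C from 0.27 and 0.29 to 0.94 and 1.03 (log2 1.88). STBD1, which tethers glycogen to membranes, rose by 0.98. The phosphorylase kinase gene PHKA2 fell by 0.91. In the pentose phosphate pathway 4 of 8 genes rose and 3 fell: transketolase, TKT, went from 202 and 212 to 336 and 334 FPKM (log2 0.82), and RPIA from 23.6 and 22.4 to 9.84 and 9.64 (log2 -1.14). The 4 rises were 2 without NC replicate 2 or either sip53 library, and the 3 falls were 1 without sip53 replicate 1.

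Lipid genes moved both ways. PLIN2, a coat protein of lipid droplets, went from 83.7 and 89.7 to 798 and 697 FPKM (log2 3.18, SE 0.10, adjusted p = 8.61e-08), beside the rise of G0S2. PLIN4 (-1.93) and the hormone-sensitive lipase gene LIPE (-1.41) fell, among 16 genes of triglyceride storage of which 5 rose, or 8 without siGYS1 replicate 2, and 4 fell, or 2 without sip53 replicate 2. Of 24 genes of cholesterol synthesis and uptake 10 fell and 5 rose (median -0.3). INSIG1, which holds back the sterol sensor, went from 46.4 and 41.1 to 170.0 and 154 FPKM (log2 2.02), while MVK (-1.11) and EBP (-0.99) fell. The 5 rises were 2 without either sip53 library and 3 without NC replicate 2. In fatty acid synthesis 6 of 16 fell and 3 rose, with ACACB at -2.07, SCD5 at -1.04 and ACSL1 at 1.03. In fatty acid oxidation 4 of 18 rose and 4 fell, with HADHB at 0.57 and HADH at -0.86. These counts, 22.2% each way, are near the shares over all genes tested (23.4% higher and 26.5% lower). The 4 rises were 1 without sip53 replicate 2, 2 without sip53 replicate 1 or either NC library and 7 without either siGYS1 library, and the 4 falls were 2 without NC replicate 2 or sip53 replicate 2.

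Amino acid uptake and stress genes rose in part. Of 14 amino acid transporters 8 rose and 3 fell (median 0.86). SLC7A5, the light chain of the large neutral amino acid transporter, went from 14.8 and 13.2 to 77.3 and 82.2 FPKM (log2 2.61, SE 0.10, adjusted p = 1.48e-07), and its heavy chain SLC3A2 from 48.2 and 55.3 to 106 and 115 (log2 1.16). Both subunits were thus higher in the same libraries. In serine, glycine and one-carbon metabolism 7 of 12 fell and 2 rose: PHGDH, which opens serine synthesis, went from 29.7 and 30.9 to 11.7 and 10.8 FPKM (log2 -1.32) and PSAT1 fell by 0.75, while MTHFD2 rose by 0.60. The 2 rises were 1 without NC replicate 2 or either sip53 library. Of 15 genes of the integrated stress response 8 rose and 0 fell (median 0.43), among them the transcription factor genes CEBPB (10.3 and 10.3 to 28.4 and 29.3 FPKM, log2 1.59) and ATF3 (log2 1.61) and the pseudokinase gene TRIB3 (1.34). The CEBP-ATF word TGATGNAA stood in 3 of 14 promoters of that list (21.4%, against 1.6% of all tested genes). Among all genes higher by at least 2-fold it stood in 1.8%, and among those lower by at least 2-fold in 2.2%. The share in that list thus describes the genes listed, not the rises at large.

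The chaperones did not follow one direction. Of 20 chaperones and folding factors of the endoplasmic reticulum 5 rose and 5 fell, with EDEM1 at 1.20, HERPUD1 at 0.76 and XBP1 at -0.38. These counts, 25.0% each way, are near the shares over all genes tested (23.4% higher and 26.5% lower). The rises were 2 without NC replicate 2 or either sip53 library, and the falls were 2 without NC replicate 2 and 1 without sip53 replicate 1. Of 17 cytosolic heat shock genes 7 rose and 3 fell: the small heat shock gene CRYAB went from 42.9 and 40.9 to 132 and 103 FPKM (log2 1.56), while HSP90AA1 went from 481 and 505 to 290.2 and 289.6 (log2 -0.67) and HSPD1 fell by 0.59. The 7 rises were 4 without either NC library or sip53 replicate 1, and 3 without sip53 replicate 2.

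Redox, iron and lysosome genes rose more often than they fell. HMOX1, heme oxygenase 1, was at 27.7 and 29.7 FPKM with NC and 324 and 262 with sip53 (log2 3.48, SE 0.13, adjusted p = 1.28e-07). It headed both the NRF2 and redox list (9 of 18 rose, 2 fell) and the iron list (7 of 11 rose, 1 fell). The thioredoxin reductase gene TXNRD1 went from 56.4 and 46.9 to 196 and 162 FPKM (log2 1.90), the cystine transporter gene SLC7A11 from 0.91 and 0.73 to 2.95 and 2.50 (log2 1.83), and OSGIN1 rose by 1.25. AKR1C1 fell by 1.01, and the 2 falls of its list were 1 without any 1 NC or sip53 library. The antioxidant response word TGACNNNGC stood in 3 of 13 promoters of that list (23.1%, against 15.1% of all tested genes). Among iron genes the zinc and iron importer gene SLC39A14 rose by 0.95 and the siderophore-binding LCN2 fell by 1.22, with 1 more iron gene lower without either siGYS1 library. Of 28 autophagy and lysosome genes 19 rose and 4 fell (median 0.4), or 12 rose without sip53 replicate 2. The protease cathepsin D, CTSD, went from 226 and 239 to 674 and 657 FPKM (log2 1.65), the autophagy receptor SQSTM1 from 217 and 218 to 631 and 569 (log2 1.62), and NPC1, the lysosomal cholesterol exporter, rose by 1.25. ATG5, of the conjugation machinery, fell from 21.5 and 21.9 to 8.75 and 8.32 FPKM (log2 -1.25).

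Of 16 BCL2 family genes 10 rose and 3 fell (median 0.37), and the rises held both sides of the family. BCL2A1, an inhibitor of death, was at 0.79 and 1.70 FPKM with NC and 12.2 and 11.6 with sip53 (log2 3.36, SE 0.29). HRK, a pro-death BH3-only gene, was at 0.45 and 0.44 FPKM with NC and 1.87 and 1.80 with sip53 (log2 2.14, SE 0.15). MCL1 (0.79) and BAK1 (0.82), named after their values were seen, rose as well. The 3 falls were BAX, BBC3 and BIK, and 1 of them was left without NC replicate 2 or sip53 replicate 1. Caspases and inhibitors of apoptosis were even, with 6 of 20 higher and 6 lower, or 3 lower without sip53 replicate 2. The inhibitor genes BIRC2 (0.72) and CFLAR (0.70) rose, and CASP10 (-0.74) and the mitotic survivin gene BIRC5 (-0.88) fell.

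**Figure D5:**
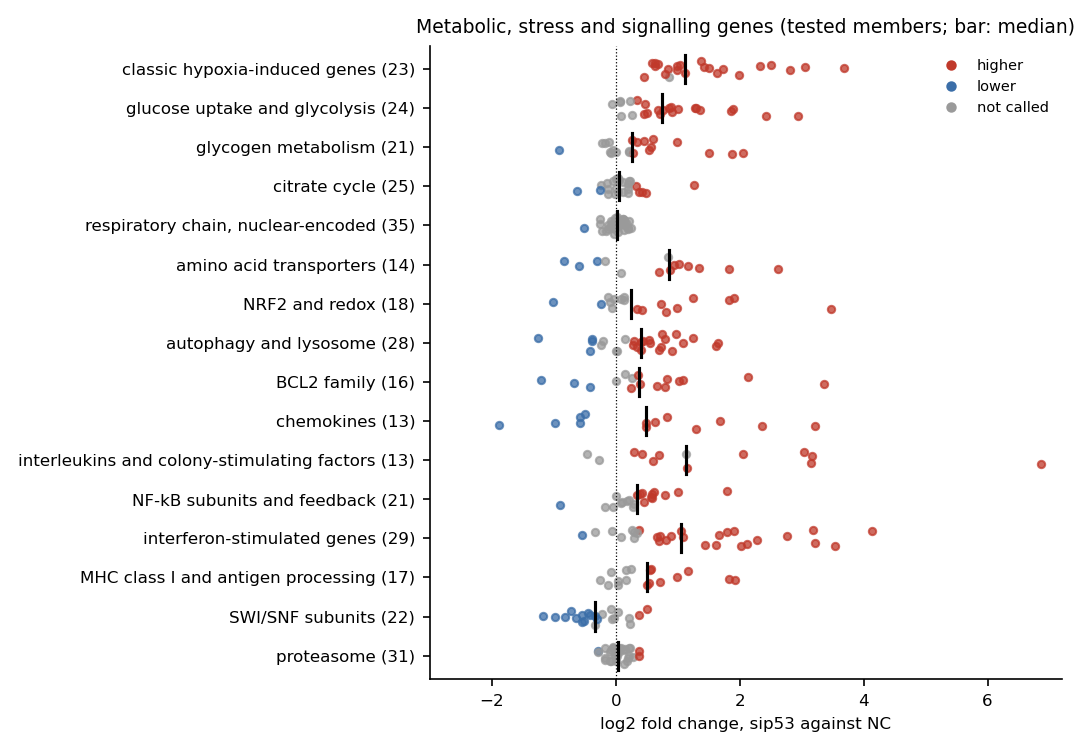
Log2 fold change of sip53 against NC for every tested member of 16 lists, with the number tested in brackets, the median as a bar and the call as colour. The hypoxia list lies wholly above 0 with its median at 1.12, while the respiratory chain and the proteasome are gathered near 0.

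Cytokine genes gave some of the largest rises. Of 13 interleukins and colony-stimulating factors 10 rose and 0 fell (median 1.14), or 2 fell without siGYS1 replicate 1 and 1 without siGYS1 replicate 2. Beside CSF2, the granulocyte factor CSF3 went from 0.49 and 0.68 to 5.16 and 5.07 FPKM (log2 3.16, SE 0.24), IL11 from 0.44 and 0.55 to 3.71 and 2.90 (log2 3.15) and IL1A from 0.39 and 0.42 to 3.19 and 3.06 (log2 3.04). All 3 were below 1 FPKM in both NC libraries. All 13 tested chemokines changed, 8 higher and 5 lower: CXCL8 went from 289 and 276 to 2532 and 2344 FPKM (log2 3.22, SE 0.09, adjusted p = 5.02e-08), CCL20 from 193 and 196 to 592 and 563 (log2 1.68) and CXCL3 from 106 and 104 to 26.3 and 26.8 (log2 -1.88). CXCL8 and CXCL3, ligands of the same receptor CXCR2, thus moved in opposite directions.

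The AP-1 word TGANTCA is shown for 5 genes that rose, because it was more frequent among the large rises. It stood in 9.8% of genes higher by at least 2-fold, in 4.6% of those lower by at least 2-fold, in 4.5% of all tested genes and in 7.8% of the table. It was in 3 of 6 promoters of the interleukin list. The word is in capitals below. It is its own reverse complement apart from the middle base, and 1 strand is printed.
CXCL8 (chr4:73740421-73740449, plus strand): aggaagtgtgaTGACTCAggtttgccctg
IL1A (chr2:112784488-112784516, minus strand): gcgaagaagacTGACTCAggcttaagctg
IL11 (chr19:55370542-55370570, minus strand): ggcagggagggTGAGTCAggatgtgtcag
ITGA5 (chr12:54419255-54419283, minus strand): cctccccgcgtTGAGTCAttcgcctctgg
MMP7 (chr11:102530797-102530825, minus strand): aaacactcaaaTGAGTCAcctatttccac
ITGA5, the fibronectin receptor subunit, was at 10.3 and 8.32 FPKM with NC and 59.1 and 58.2 with sip53 (log2 2.84, SE 0.09, adjusted p = 8.61e-08), and the protease matrilysin, MMP7, at 1.61 and 1.94 and 6.11 and 6.12 (log2 1.88). Of 21 immediate early and AP-1 factor genes 12 rose and 5 fell (median 0.44). FOSB went from 0.96 and 0.79 to 2.45 and 1.95 FPKM (log2 1.62) and KLF6 from 56.9 and 51.5 to 147 and 133 (log2 1.48), while EGR1 went from 11.2 and 11.8 to 2.21 and 2.38 (log2 -2.22).

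NF-kB feedback genes rose more often than they fell. Of 21 genes 11 rose and 1 fell (median 0.35). TNFAIP3, the inhibitor A20, went from 10.8 and 9.77 to 34.5 and 33.02 FPKM (log2 1.79, SE 0.10), CYLD rose by 1.00 and IKBKE by 0.80, and NFKBIZ fell from 109 and 94.7 to 52.5 and 51.5 FPKM (log2 -0.90). Of 25 cytokine receptor and STAT genes 9 rose and 4 fell. The interleukin-6 receptor gene IL6R went from 0.73 and 0.61 to 6.74 and 5.59 FPKM (log2 3.28, SE 0.13), STAT5B from 0.82 and 0.55 to 1.96 and 2.00 (log2 1.63), and the feedback gene SOCS3 rose by 1.19. Of 22 TNF ligand and receptor genes 8 rose and 5 fell, among the rises TNFRSF1B, a receptor of TNF (0 and 0.02 to 0.18 and 0.21 FPKM, log2 4.36). Without either sip53 library the 8 rises were 5, and the 5 falls were 2 without NC replicate 1 and 3 without sip53 replicate 1.

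Of 29 interferon-stimulated genes 21 rose and 1 fell (median 1.06). MX1, an antiviral GTPase, went from 1.23 and 0.95 to 9.76 and 10.4 FPKM (log2 3.18, SE 0.14, adjusted p = 3.5e-07), OASL from 0.35 and 0.23 to 2.95 and 2.43 (log2 3.53) and IFI44 from 0.04 and 0.04 to 1.19 and 0.67 (log2 4.14). These genes were below 1.5 FPKM with NC, and IFI44 had 1 read in each NC library. BST2, the virus tether tetherin, was the 1 fall (2 without either siGYS1 library), from 40.96 and 45.3 to 26.8 and 28.1 FPKM (log2 -0.54). Of 17 genes of MHC class I and antigen processing 9 rose and 0 fell (median 0.51). HLA-B went from 129.6 and 135 to 244 and 243 FPKM (log2 0.98). Reads of HLA genes can be split among near-identical copies. Their transactivator gene NLRC5 rose from 0.69 and 0.68 to 1.40 and 1.24 FPKM (log2 1.92 on 29 and 33 reads with NC against 116 and 105 with sip53). Its FPKM thus rose by less than its read counts, and the cause was not tested. The interferon receptor gene IFNAR2 went from 18.04 and 17.3 to 30.9 and 31.7 FPKM (log2 1.04).

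Growth factor pathways were divided. Of 20 MAPK feedback genes 9 rose and 5 fell: the phosphatase genes DUSP5 (48.1 and 50.3 to 198 and 168 FPKM, log2 1.99), DUSP10 (log2 1.93) and DUSP1 (1.81) rose, and SPRY1 fell from 49.3 and 46.5 to 11.9 and 14.1 FPKM (log2 -1.72). Of 25 EGF ligand and receptor kinase genes 12 rose and 8 fell. PDGFB went from 0.99 and 0.87 to 6.57 and 8.80 FPKM (log2 3.26) and the receptor gene MET from 41.8 and 36.00 to 95.97 and 93.6 (log2 1.40), while ERBB4 fell by 1.38. The 8 falls were 4 without sip53 replicate 2 and 5 without sip53 replicate 1 or either NC library. Of 25 PI3K, AKT and mTOR genes 11 rose and 2 fell, among them the regulatory subunit gene PIK3R1 (1.03) and PIK3CD (0.84). INPP5D, which encodes the lipid phosphatase SHIP1, fell from 0.32 and 0.33 to 0 and 0.03 FPKM, a low level in both groups. Those 11 rises were 7 without NC replicate 1, 5 without NC replicate 2 or sip53 replicate 2 and 4 without sip53 replicate 1, and the 2 falls were 1 without NC replicate 1 or either sip53 library and 4 without siGYS1 replicate 1.

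Developmental pathways showed no common direction. Of 28 Wnt genes 8 rose (28.6%) and 6 fell (21.4%), near the shares over all genes tested (23.4% and 26.5%), with a median of 0.0. WNT5A (14.8 and 12.6 to 4.50 and 5.04 FPKM, log2 -1.48) and TCF7L1 (-1.21) were lower beside DKK1. The 8 rises were 5 without NC replicate 1 and 2 without NC replicate 2 or either sip53 library. Of 20 TGF-beta and BMP genes 10 rose and 5 fell. INHBA, a subunit of activin, went from 16.8 and 15.1 to 68.00 and 52.9 FPKM (log2 2.02), and the BMP receptor gene BMPR1A (-1.48) and its target ID1 (271 and 292 to 105 and 108 FPKM, log2 -1.28) fell. The 5 falls were 3 without NC replicate 1 or either sip53 library. Of 17 Notch genes 7 rose and 7 fell, with the ligand gene DLL1 at -2.19 and with the sheddase genes ADAM17 (1.08) higher and ADAM10 (-1.30) lower. The 7 rises were 4 without sip53 replicate 2, and the 7 falls were 3 without NC replicate 1 and 2 without sip53 replicate 1. Of 16 genes of YAP and TEAD 4 rose (25.0%) and 5 fell (31.2%), also near the shares over all genes. Without NC replicate 2 or sip53 replicate 1, 3 fell. ANKRD1 and LATS2 (1.25) rose, and CCN1 went from 399 and 441 to 187 and 194 FPKM (log2 -1.04). Of 18 clock genes 7 fell and 4 rose, with PER2 at -1.80 and PER3 at -1.49.

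At the cell surface, 7 of 15 integrin genes rose and 4 fell, or 2 without NC replicate 1 or either sip53 library. ITGB3 went from 69.5 and 60.8 to 216 and 199 FPKM (log2 1.77, SE 0.11) and ITGB4 from 2.68 and 2.39 to 0.37 and 0.29 (log2 -2.75). Of 19 matrix protease and inhibitor genes 9 rose and 5 fell, with ADAMTS1 at 1.51 and ADAMTS15 at -1.56. The 5 falls were 2 without NC replicate 1 or either sip53 library and 3 without NC replicate 2. Of 18 collagen genes 6 fell and 3 rose. COL5A1 was at -2.67, COL12A1 went from 166 and 151 to 28.5 and 32.3 FPKM (log2 -2.23), and COL6A2 from 0.16 and 0.22 to 0.91 and 0.78 (log2 2.54). Of 26 other matrix genes 10 rose and 6 fell, with the laminin gene LAMB3 at 1.82. Keratins and epithelial junction genes (9 of 25 higher, 5 lower, or 2 lower without either sip53 library) held rises of the desmosome genes DSC2 (2.69) and DSG2 (30.4 and 25.7 to 75.3 and 70.8 FPKM, log2 1.48). Mesenchymal factors (3 of 10 higher, or 1 without sip53 replicate 1, and 3 lower) held ZEB2 at 2.81 and TWIST1 at -1.27.

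Among chromatin regulators falls outnumbered rises. Of 22 SWI/SNF subunits, of the remodelling complex to which ARID1A belongs, 12 fell and 2 rose (median -0.34), or 0 rose without sip53 replicate 1. SMARCE1 went from 99.6 and 109.6 to 44.4 and 42.6 FPKM (log2 -1.18, SE 0.09), SMARCC1 from 28.2 and 25.4 to 12.8 and 12.6 (log2 -0.98), and SMARCB1 (-0.82) and SMARCA2 (-0.73) fell too. Of 21 polycomb and DNA methylation genes 11 fell and 1 rose (median -0.28), or 7 fell without sip53 replicate 2. DNMT1, the maintenance methyltransferase, went from 36.6 and 35.1 to 14.8 and 18.1 FPKM (log2 -1.01), EZH2 from 26.1 and 25.02 to 11.4 and 12.7 (log2 -0.96) and UHRF1 fell by 0.71, while RNF2 rose by 0.50. Of 31 proteasome genes 2 rose and 1 fell, 0 of either without sip53 replicate 1, and 7 rose without siGYS1 replicate 2 and 6 without siGYS1 replicate 1. Of 40 cytosolic ribosomal protein genes 6 rose and 3 fell. The 6 rises were 0 without NC replicate 1 or either sip53 library, and the 3 falls were 1 without NC replicate 2 or either sip53 library. Of 30 mitochondrial ribosomal protein genes 5 rose and 7 fell, with MRPL9 (70.4 and 72.9 to 22.2 and 22.9 FPKM, log2 -1.57) at the low end. Of 30 genes of ribosome biogenesis 5 rose and 6 fell, and MYC, which is listed with them, went from 39.01 and 39.1 to 79.9 and 80.3 FPKM (log2 1.01). The mitochondrial rises were 2 without NC replicate 1 or either sip53 library, and the falls were 2 without NC replicate 2 or sip53 replicate 1 and 4 without sip53 replicate 2. The biogenesis rises were 3 without NC replicate 1 or either sip53 library and 9 without siGYS1 replicate 2, and the falls were 2 without NC replicate 2 or either sip53 library.

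The markers of the line and of other cells were checked beside these results. The clear cell markers PAX8 (156 and 144 FPKM with NC, 156 and 158 with sip53) and ANXA4 (143 and 146, then 142 and 128) were well expressed. NAPSA, at 0.42 and 0.47 with NC and 0.33 and 0.32 with sip53, and MUC16, at 0.02 FPKM or less, were near 0 and were not tested. Of 12 tested clear cell markers 6 rose and 3 fell, SPP1 foremost, or 3 higher when NC replicate 1 or sip53 replicate 2 was left out. The summed level of the list was 5182.3 and 5049.9 TPM with NC and 1660.5 and 1493.3 with sip53, of which SPP1 is the most. Of 11 epithelial markers 4 fell and 2 rose: EPCAM went from 4.97 and 4.28 to 1.64 and 1.31 FPKM (log2 -1.54), CDH1 fell by 1.03 and ELF3 by 0.80, and CLDN4 rose by 2.15. The 2 rises were 1 without any 1 NC or sip53 library and 4 without either siGYS1 library. Markers of fibroblasts summed to 19.7 and 28.0 TPM with NC and 18.7 and 15.9 with sip53, of leukocytes to 38.6 and 38.2, then 37.7 and 37.9, and of endothelium to 17.4 and 17.6, then 14.6 and 13.7. CLDN5 was at 0 in the NC and sip53 libraries, COL3A1 and VWF were at 0.02 FPKM or less, and LYZ at 0.22 or less. The endothelial gene PECAM1 rose from 0.09 and 0.10 to 0.52 and 0.28 FPKM (log2 2.05). DCN was called higher on 3 and 4 reads with NC against 70 and 57 with sip53, although its FPKM overlapped (0.31 and 6.97, then 4.47 and 3.12). The part of other cells in the results was not tested.

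Compared directly with the siGYS1 libraries, the sip53 libraries differed in 5745 genes (43.4%), 2766 higher (20.9%) and 2979 lower (22.5%). This comparison and that with NC share the sip53 libraries, so the values stand side by side and not as independent results. MDM2 was lower than with siGYS1 by 1.88 (adjusted p = 1.98e-06) and CDKN1A by 0.77 (adjusted p = 7.19e-05). Of the 52 p53 targets 27 were lower than with siGYS1 and 3 were higher. The proliferation genes were lower than with siGYS1 in 126 of 171 and higher in 11, with HMMR at -2.12 and MCM6 at -1.25. The hypoxia genes were higher in 22 of 23, glycolysis genes in 18 of 24 (1 was lower) and interferon-stimulated genes in 21 of 29 (1 was lower). CXCL8 was higher by 2.14, CSF2 by 3.65 and VGF by 4.84. A direct difference can be one of size, as some genes moved the same way with siGYS1 against NC. In that contrast CXCL8 (log2 1.08), CSF2 (3.21), CD69 (2.68) and CA9 (2.48) were higher, and DKK1 (-1.17) and COMP (-1.31) lower. CDKN1A (0.30) and CXCL5 (0.57) were higher with siGYS1 and lower with sip53. Each of these passed an adjusted p of 0.05. Other changes of sip53 against NC were not told apart from siGYS1 by the direct test: HRK differed by -0.01 (adjusted p = 0.937), EGR1 by -0.33 (adjusted p = 0.103), FTH1 by 0.23 (adjusted p = 0.0873), CCNG1 by -0.12 (adjusted p = 0.233) and GADD45A by 0.06 (adjusted p = 0.619). A p above the threshold does not show that these genes responded alike.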

How the data were processed

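The deposited table holds, per gene and library, the authors' estimated counts of reads, with FPKM and TPM values beside them, named as such per the file headers. Between 16.8% and 18.1% of the counts of a library were not whole (tolerance 1e-09), so they were taken for expected counts, an estimated count per gene as deposited by the authors, and rounded. The submitters' processing notes name the aligners HISAT2, STAR and TopHat, the counters Salmon, featureCounts and HTSeq, trimming tools and test packages, all without roles, and a mouse build, mm10, although 16830 of 16910 gene IDs are in human GENCODE 29. The steps used for this table are otherwise not stated.

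edgeR 4.0.16 (R 4.3.3) was fitted to all 6 libraries with group as the term, after filterByExpr (minimum count 10) and TMM scaling, with Benjamini-Hochberg adjustment over 13235 genes. The code was tested on simulated data. limma 3.58.1 and DESeq2 1.42.0 gave alternatives, as did other filters, scalings, a replicate block and each library left out. Genes are named by rule: the regulators of p53, the 15 largest rises and falls among called protein-coding genes of at least 1 FPKM without overlap, the 10 largest in TPM each way among called genes (mitochondrially encoded transcripts left out), and up to 4 called members of each of 71 lists with the largest change, with 1 in the other direction. Some genes that this rule takes are not reported here. Others are marked as chosen after their values were seen. The lists and the comparison were chosen with earlier results of these data known. Promoters of 10632 tested genes were matched in the RefSeq table of build GRCh38.p14, by symbol, at the first listed start. Counting intervals cover counting error only.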

Additional observations from a re-analysis of the deposited data

How the results depend on the processing

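The count of changed genes ran from 4271 to 7621 when 1 library was left out, the count of higher genes from 2029 to 3785, that of lower genes from 2242 to 4001 and that of changes of at least 2-fold from 1492 to 1749. The lowest value of each of these 4 ranges was without sip53 replicate 1. With a library of NC or sip53 left out, 1 library stands for its group and is assumed to vary like the others. limma gave 2056 higher genes on log2(FPKM + 1) and 2060 on log2(FPKM + 0.1), and 814 changes of at least 2-fold on log2(FPKM + 1), a scale that shrinks changes of low genes. The other alternatives kept these 4 counts within 1.5 times. RLE scaling made 50% of the calls higher and DESeq2 52.0%, with 5345 genes called by DESeq2. No named gene that was called in the main fit changed direction under any alternative that tested it. Signs of named genes that were not called were not compared. Of 142 counts of called list members, 1 to 33 moved by more than 1.5 times under settings other than those without a sip53 library, which moved 46 and 47. The groups share replicate numbers, but nothing says that a number marks a shared culture, and with 2 numbers a group the data cannot settle it. The deviations of same-numbered libraries correlated at 0.12 for NC and sip53, 0.59 for NC and siGYS1 and 0.27 for siGYS1 and sip53. With a replicate block 7890 genes were called, and 8284 with length-corrected offsets as well. With 2 libraries a group, a gene that did not pass is not shown to be unchanged.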
